A study of Mus musculus with 10 samples.

Results

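T cell receptor variable (V) segments were taken as all genes that the GENCODE annotation of GRCm38 types as TR_V_gene, which gave 129 of the 34932 genes with a quantified transcript. They comprised 95 alpha segments (Trav), 22 beta segments (Trbv), 7 gamma segments (Trgv) and 5 delta segments (Trdv). A count was found for 124 of them in at least 1 library, and 5 were at 0 throughout (Trav11, Trav7d-2, Trav7n-6, Trbv17 and Trbv30). Each T cell assembles its receptor genes by joining 1 V segment to a joining (J) segment, with a diversity segment in between in beta and delta chains, and the joined exon is spliced to a constant (C) region. In a polyclonal population the V transcripts are spread over many segments, whereas a receptor transgene gives most cells the same pair. The Pmel receptor is such a transgene. It recognizes a gp100 peptide of melanocytes on a class I molecule, and its beta chain uses Trbv14.

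RNA was sequenced from tumor-infiltrating Pmel CD8+ T cells in 2 groups of 5 mice. In both groups splenocytes of Pmel Thy1.2/Thy1.2 mice had been activated with gp100 peptide and IL-2 and transduced with the MSCV-IRES-Thy1.1 retroviral vector (MIT), which carried the mouse BATF reading frame in MIT-BATF and nothing further in MIT-Empty. Ly5.1 mice (C57BL/6 CD45.1/CD45.1 in the study's methods, which give 8 to 12 weeks of age and either sex) carried B16-F10 melanoma, received 5000000 Thy1.1+ cells into the retroorbital sinus, and gave 2000 live (7AAD-) Thy1.1+ cells each from the tumor on day 7. BATF is an AP-1 family transcription factor, and the comparison asked how its overexpression changed the RNA of these cells. Thy1.1 marks transduced cells of any receptor. The Pmel donors were not stated to lack Rag genes, so cells with rearrangements of their own segments could be present, and a transgene transcript cannot be told apart from one of the same V segment in its own locus.

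Libraries held 6534648 to 34102346 estimated counts. In each group the counts of replicate 4 lay within those of replicate 2, and those of replicate 5 within those of replicate 3, exceeding them in at most 0.661% of genes, against at least 3.54% in any other pair. Each group then holds only 3 libraries that lie within no other, and p-values over 5 libraries may be too small, so results are also given with the shared counts counted once (the contained library taken off the containing one). Batf itself did not differ (log2 fold change -0.41, adjusted p = 0.522 from edgeR), so directions refer to the libraries as labelled. All 5 markers of CD8+ T cells were present, at a summed 2225 to 3556 CPM in MIT-BATF and 2446 to 4147 in MIT-Empty. CPM here are counts scaled to a library size adjusted by the TMM normalization of edgeR. They therefore differ from counts scaled to the library totals alone. Mitochondrial genes took 33.2% of the counts of MIT-BATF replicate 1, against 11.5% to 23.1% in the other libraries. The 5 melanoma markers summed to 14 to 28.3 CPM in MIT-BATF but 39 to 1681 CPM in MIT-Empty, and all 5 were lower in MIT-BATF past the threshold (2 of 5 with shared counts counted once). None of the other marker lists had more than 1 gene past the threshold (Cd79b, higher in MIT-BATF). The filter left 2 of 4 CD4 T cell, 2 of 6 gamma-delta T cell, 3 of 4 NK, 1 of 4 B cell and 4 of 5 macrophage genes. The macrophage list summed to 8.43 to 20.5 CPM in MIT-BATF, against 10.9 to 48.3 CPM in MIT-Empty. The part of these differences in the results was not tested.

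The segment that carried nearly all beta transcripts was Trbv14, on chromosome 6. Its V exon lies at chr6:41135320-41135616 of GRCm38 on the plus strand. It is shown whole because each of its 37-base words, the length of a read, occurs in no other gene quantified here, so its counts rest on no near copy:

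Trbv14: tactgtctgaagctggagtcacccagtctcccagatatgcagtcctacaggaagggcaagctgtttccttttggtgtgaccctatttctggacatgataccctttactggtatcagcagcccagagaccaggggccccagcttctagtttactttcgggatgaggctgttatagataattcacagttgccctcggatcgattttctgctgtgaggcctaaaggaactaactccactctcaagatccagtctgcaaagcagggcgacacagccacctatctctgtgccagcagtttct

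The main alpha segment was Trav7n-5, 1 of 13 Trav7 copies on chromosome 14, and these copies are near one another in sequence. The 120 aligned bases of the V exon in which they differ most are shown for the 5 copies with a mean of at least 10 counts, on the plus strand, at chr14:53147240-53147359 for Trav7n-5, chr14:53531105-53531224 for Trav7-5, chr14:53390935-53391054 for Trav7-2, chr14:53443631-53443750 for Trav7-3 and chr14:53461526-53461645 for Trav7-4. Capitals mark the bases that differ from Trav7n-5:

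Trav7n-5: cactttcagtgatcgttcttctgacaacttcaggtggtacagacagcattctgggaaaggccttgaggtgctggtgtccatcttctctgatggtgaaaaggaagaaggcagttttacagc
Trav7-5: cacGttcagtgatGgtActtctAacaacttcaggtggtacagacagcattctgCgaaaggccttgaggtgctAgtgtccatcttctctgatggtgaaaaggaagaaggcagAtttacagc
Trav7-2: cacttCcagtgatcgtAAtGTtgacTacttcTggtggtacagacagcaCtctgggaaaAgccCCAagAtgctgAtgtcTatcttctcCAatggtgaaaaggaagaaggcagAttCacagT
Trav7-3: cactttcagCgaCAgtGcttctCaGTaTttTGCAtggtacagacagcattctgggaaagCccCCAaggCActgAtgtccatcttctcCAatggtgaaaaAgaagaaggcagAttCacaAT
Trav7-4: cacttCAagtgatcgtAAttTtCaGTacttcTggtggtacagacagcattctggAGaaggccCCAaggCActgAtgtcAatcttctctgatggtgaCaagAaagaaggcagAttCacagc

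Trav7-5 differed from Trav7n-5 at 7 of these 120 bases, against 20 to 26 in the other copies shown. Over the whole V exon its identity with Trav7n-5 was 95.1%, and that of the other copies shown was 85.8% to 86.5%. Of the 37-base words of Trav7n-5, 79.9% occurred in no other gene, and those of Trav7-5 were unique to 79.7%. Trav7-4 had 15.9% unique words (82.2% were shared with Trav7d-4) and Trav7-2 had 0%, so the split of reads among such copies is uncertain. The issue is general for the alpha chain, where the median segment had 40.7% unique words and 59 of 95 had under 50%, while the median beta segment had 100%.

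Trbv14 took between 98.57% and 99.36% of the beta V counts in every library. In MIT-BATF replicates 1 to 5 it had 21035, 69282, 120421, 44534 and 81390 of 21341, 69762, 121249, 44850 and 81927 Trbv counts. These shares were 98.57%, 99.31%, 99.32%, 99.30% and 99.34%, with 95% Wilson intervals (counting error only) from 98.40% to 98.72% in replicate 1 and from 99.21% to 99.40% over the others. In MIT-Empty replicates 1 to 5 it had 20746, 61462, 76175, 16625 and 55335 of 20935, 62068, 76785, 16807 and 55689 counts, or 99.10%, 99.02%, 99.21%, 98.92% and 99.36%. MIT-BATF replicate 1 was the lowest of all libraries, and the groups overlapped. The mean share was 99.17% ± 0.336 in MIT-BATF, against 99.12% ± 0.172 under MIT-Empty (SD, n = 5 each), a difference of 0.0455 percentage points (exact two-sided permutation test, p = 0.833, adjusted p = 0.889 over 2 shares). Without MIT-BATF replicate 1 the difference was 0.196 percentage points (exact permutation test, p = 0.0794, adjusted p = 0.159), and without the contained libraries it was -0.0438 percentage points, where 3 against 3 cannot go below p = 0.1.

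Trbv14 reached 1846, 2809, 2791, 4359 and 4387 CPM in MIT-BATF replicates 1 to 5, and 2540, 3117, 3118, 2687 and 4591 CPM in MIT-Empty. The groups overlapped, with MIT-BATF replicate 1 below every MIT-Empty library and MIT-Empty replicate 5 above every MIT-BATF library. Its log2 fold change, MIT-BATF against MIT-Empty, was 0.01 (SE 0.25, 95% interval -0.51 to 0.54, adjusted p = 0.988 by the edgeR quasi-likelihood fit, adjusted by Benjamini-Hochberg over all genes tested), and -0.10 (SE 0.38, adjusted p = 0.971) with shared counts counted once.

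The remaining 21 beta segments together had 182 to 828 counts per library, or 0.636% to 1.43% of the chain. Trbv13-1 led them, with 0.323% to 0.583% of Trbv counts and 117, 260, 516, 145 and 315 counts in MIT-BATF and 110, 303, 359, 98 and 190 in MIT-Empty. Its level of 12.8 ± 2.81 CPM in MIT-BATF, against 15 ± 0.982 CPM in MIT-Empty, did not pass the test (log2 fold change -0.23, SE 0.18, adjusted p = 0.534 from edgeR). Trbv13-2 was at 3.27 ± 1.09 CPM against 1.42 ± 0.61 CPM (log2 fold change 1.15, SE 0.39, adjusted p = 0.125 from edgeR; 0.98, adjusted p = 0.54, with shared counts counted once). Trbv31, the only mouse beta segment downstream of the C regions, had a log2 fold change of -1.08 (SE 0.49, adjusted p = 0.264 from edgeR). Trbv12-2, Trbv19 and Trbv29 each had a mean share of 0.0425% to 0.0847% of the chain and an adjusted p of at least 0.327 from edgeR. Trbv3, singled out after its values were seen, had 87 of its 91 counts in MIT-Empty replicate 2, with 1 count in MIT-BATF replicate 1 and 3 in MIT-Empty replicate 1, and did not pass the filter on low counts. In MIT-Empty replicate 2 that was 87 of 62068 beta counts, and none lay in replicate 4, whose counts are part of replicate 2.

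**Figure D1:**
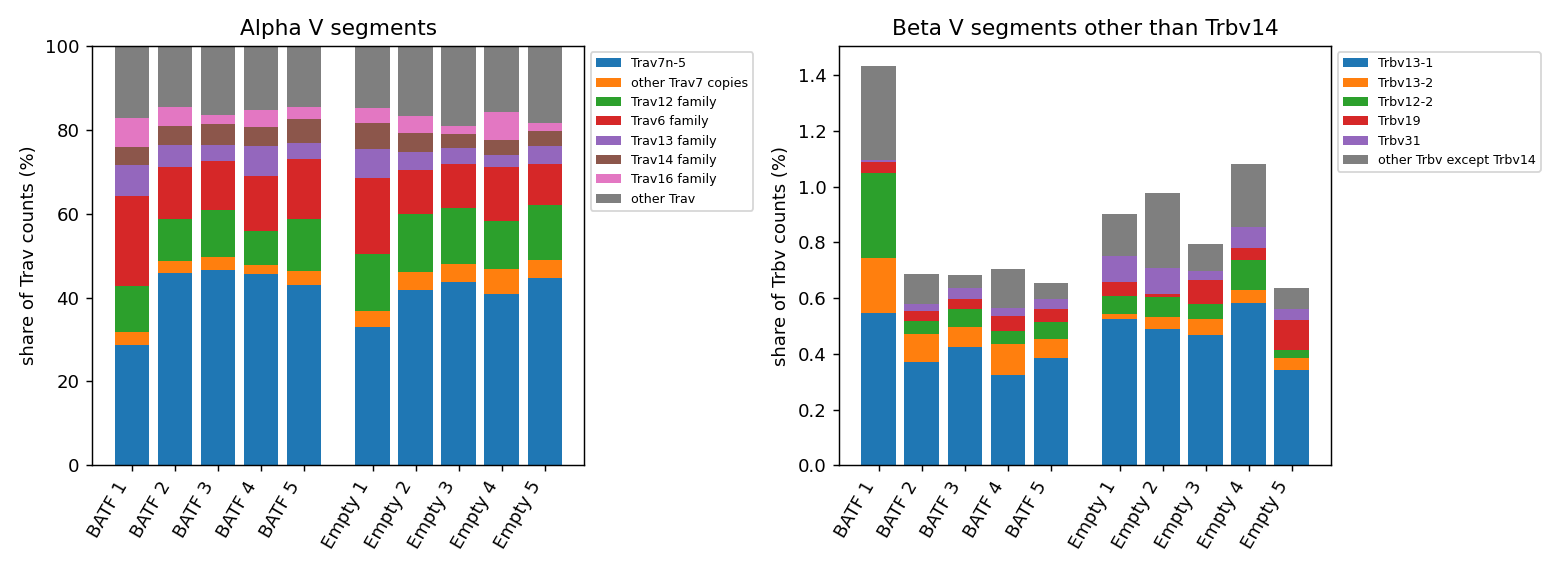
Left, share of alpha V counts (%) taken by Trav7n-5, the other Trav7 copies, 5 further families and the rest in each of the 10 libraries (bars). Right, share of beta V counts (%) of the segments other than Trbv14, which together stay between 0.636% and 1.43%. Trav7n-5 has the tallest block of the alpha chain in each library, and is lowest in replicate 1 of both groups (28.6% and 33.1%).

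The alpha chain was the less abundant and, by share, the more diverse of the pair. Trav segments had 897 to 5521 counts per library, 3.98% to 6.11% of all V counts, against 93.5% to 95.6% for Trbv. Between 55 and 76 of the 95 alpha segments had a count in a library, and 16 to 26 took at least 1% of the chain, where in the beta chain Trbv14 was the only segment to do so. A share of 1% is fewer counts in the alpha chain, and the alpha numbers depend on the split of reads among near copies. In counts, alpha segments outside the Trav7 copies had 476 to 2784 per library, and beta segments other than Trbv14 had 182 to 828. On the authors' TPM scale, which corrects for transcript length, Trbv14 stood at 39.3 to 53.6 times Trav7n-5 in the same library. The C regions showed a ratio of the same order on this scale, where Trbc1 and Trbc2 together stood at 26.1 to 51 times Trac. Both ratios are descriptions of levels with no test.

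Trav7n-5 had 399, 1537, 2564, 906 and 1467 counts in MIT-BATF replicates 1 to 5 and 345, 1321, 1643, 366 and 1203 in MIT-Empty, which is 28.6% to 46.4% of the alpha chain. The 12 other Trav7 copies added little, since Trav7n-5 held 87% to 95.5% of all Trav7 counts. Summed, the Trav7 copies took 31.7%, 48.7%, 49.6%, 47.9% and 46.4% of Trav counts in MIT-BATF, and 36.9%, 46.1%, 48.1%, 46.9% and 48.8% in MIT-Empty. Replicate 1 was the lowest library of each group, with Wilson intervals of 29.3% to 34.2% and 34.1% to 39.9% that lie below those of every other library (43.7% or above). The means of 44.85% ± 7.45 and 45.37% ± 4.83 (SD, n = 5 each) differed by -0.515 percentage points (exact two-sided permutation test, p = 0.889, adjusted p = 0.889 over 2 shares). The direction turned to 1.22 percentage points with shared counts counted once (exact permutation test, adjusted p = 0.762), and to 2.78 without MIT-BATF replicate 1 (adjusted p = 0.333).

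In level, Trav7n-5 was at 64.9 ± 20.6 CPM in MIT-BATF, against 67.1 ± 20.9 CPM under MIT-Empty (log2 fold change -0.05, 95% interval -0.57 to 0.47, adjusted p = 0.947 from edgeR). For the summed Trav7 copies the log2 fold change was -0.10 (SE 0.24, adjusted p = 0.874), and -0.14 with shared counts counted once. Among the lesser copies, Trav7-4 had 11, 20, 39, 5 and 26 counts in MIT-BATF and 17, 29, 67, 17 and 43 in MIT-Empty. All its MIT-BATF libraries lay below all MIT-Empty libraries in CPM (0.489 to 1.4 against 1.47 to 3.57), with a log2 fold change of -1.44 (SE 0.4, adjusted p = 0.0533 from edgeR, just outside the threshold of 0.05). With shared counts counted once the groups overlapped and the value was -1.32 (adjusted p = 0.293). The log2 fold change of Trav7-5, the copy nearest to Trav7n-5, was -0.42 (adjusted p = 0.622), that of Trav7-3 was -0.14 (adjusted p = 0.924), and Trav7-2 did not pass the filter on low counts.

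**Figure D2:**
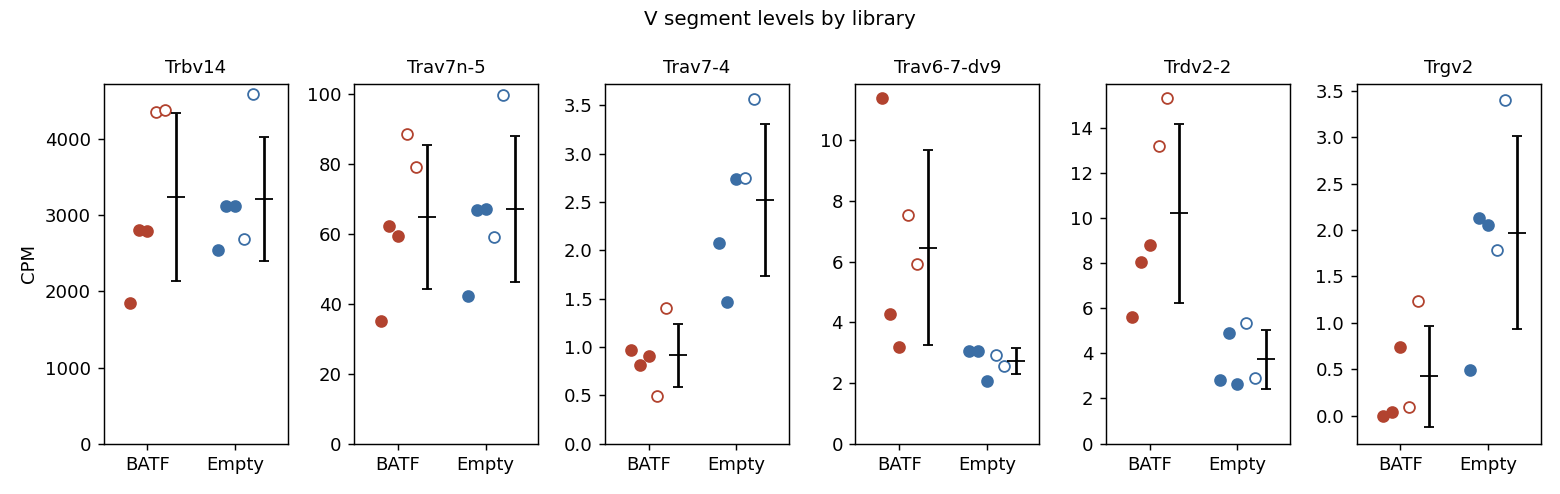
Level in CPM of 6 V segments in each library of MIT-BATF (red) and MIT-Empty (blue), each on its own axis. Open circles are replicates 4 and 5, whose counts lie within replicates 2 and 3, and black marks are the mean and SD over 5 libraries. Trbv14 and Trav7n-5 overlap between groups, while Trdv2-2 lies at 5.62 to 15.3 CPM in MIT-BATF, above the 2.66 to 5.33 CPM of MIT-Empty.

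The rest of the alpha chain was spread over the other 20 families. Trav6 (13 copies) took 10% to 21.4% of Trav counts, Trav12 (7 copies) 8.07% to 14%, Trav13 2.92% to 7.52%, Trav14 3.32% to 5.95% and Trav16 1.86% to 6.91%. Outside the Trav7 copies, Trav12-2 led with a mean share of 5.04%, followed by Trav6n-7 (3.29%), Trav6-7-dv9 (3.08%), Trav12-3 (2.52%), Trav16n (2.24%) and Trav6-6 (2.11%). Of these 6 segments none passed the threshold between groups. Trav6-7-dv9, which can also join delta segments, came nearest, with 130, 105, 137, 77 and 110 counts in MIT-BATF and 25, 60, 50, 18 and 31 in MIT-Empty. It lay at 6.46 ± 3.22 CPM against 2.73 ± 0.428 CPM with no overlap (log2 fold change 1.24, SE 0.34, adjusted p = 0.0517 from edgeR), and MIT-BATF replicate 1 was its highest library, at 11.4 CPM. With shared counts counted once its log2 fold change was 1.07 (SE 0.53, adjusted p = 0.508) and the groups overlapped. Its near copy Trav6n-7, with 101, 98, 82, 80 and 49 counts against 57, 77, 109, 22 and 70, had a log2 fold change of 0 (SE 0.41, adjusted p = 0.999). Only 38.2% and 32.9% of the words of these 2 segments were unique.

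Along the alpha locus, the 31 segments nearest to the joining segments (29 without Trav7 copies) took 51.1% to 58.7% of the Trav counts outside the Trav7 copies. The 32 segments of the middle stretch (28 without Trav7 copies) took 30.9% to 36.4% and the 32 farthest ones (25 without Trav7 copies) 4.93% to 13.4%. Trav7n-5 is the nearest of that last set, so the main alpha segment of these cells lies in the stretch whose other segments were read least. The farthest stretch had a mean share of 7.84% ± 1.72 in MIT-BATF, against 12.4% ± 1.33 under MIT-Empty (SD, n = 5 each). The middle stretch had 35.1% ± 1.01 against 33.7% ± 2.31, and the nearest 57% ± 1.26 against 54% ± 2.15. These shares are descriptions with no test, and have no value with shared counts counted once. The uncertain split of reads among near copies applies to them too.

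**Figure D3:**
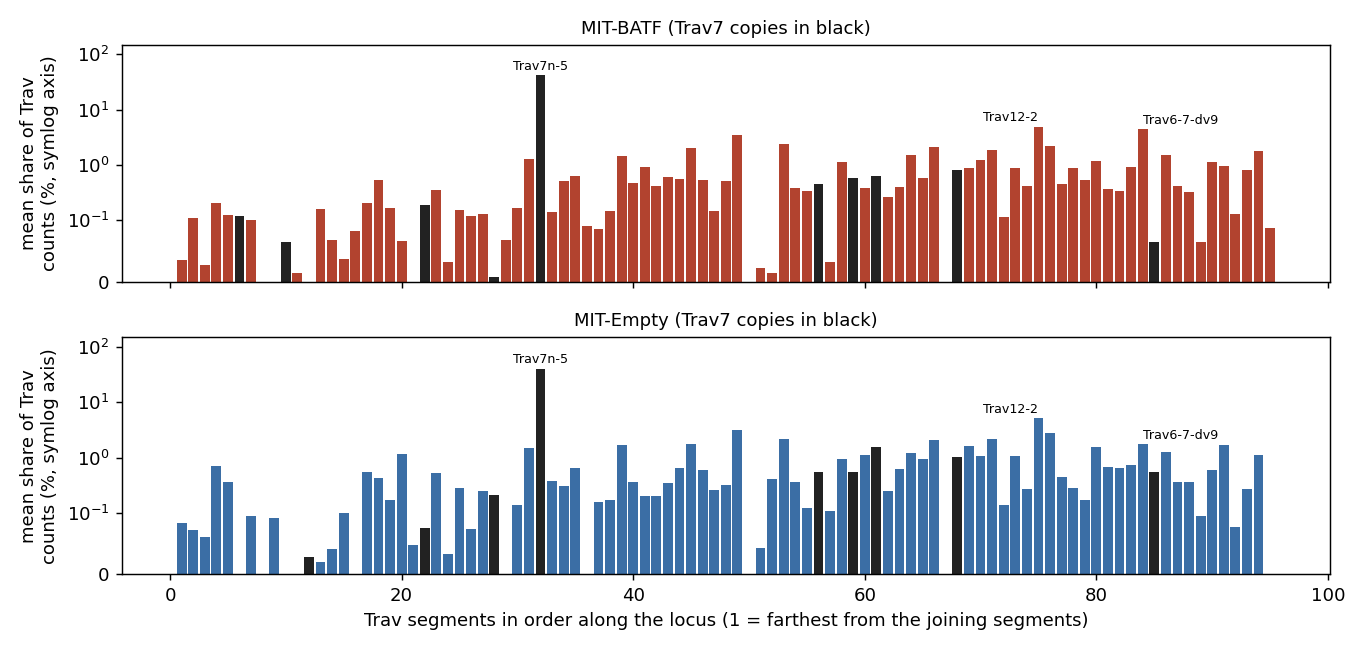
Mean share of alpha V counts (%, on a symlog axis that is linear below 0.1%) of the 95 Trav segments in their order along the locus, for MIT-BATF (top) and MIT-Empty (bottom), n = 5 libraries each. Trav7 copies are black. Trav7n-5 stands at 41.9% and 40.8%, and the 31 positions farthest to the right (29 without Trav7 copies) hold 51.1% to 58.7% of the counts outside the Trav7 copies.

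Gamma and delta segments, which build the receptor of gamma-delta T cells, had few counts. The 7 Trgv segments had 2 to 66 counts per library and the 5 Trdv segments 42 to 515. Trdv2-2 was the main delta segment, with 37.4% to 81.1% of the delta counts, and it is nearly the same as Trdv2-1. The 120 bases of the V exon in which they differ most are at chr14:53961481-53961600 for Trdv2-2 and chr14:53946539-53946658 for Trdv2-1, with capitals where Trdv2-1 differs (4 bases):

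Trdv2-2: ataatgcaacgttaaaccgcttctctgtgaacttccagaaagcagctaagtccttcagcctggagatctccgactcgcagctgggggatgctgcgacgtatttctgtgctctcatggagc
Trdv2-1: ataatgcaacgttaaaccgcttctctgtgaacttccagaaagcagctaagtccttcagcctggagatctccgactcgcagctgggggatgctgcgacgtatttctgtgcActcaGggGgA

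Identity over the V exon was 97.7%, and 42.1% of the words of Trdv2-2 were unique, the others being shared with Trdv2-1. Both exons also overlap the antisense gene Gm43647, not analysed here, and without strand marks in the protocol the reads of both genes cannot be told apart.

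Trdv2-2 had 64, 198, 379, 135 and 283 counts in MIT-BATF replicates 1 to 5 and 23, 97, 65, 33 and 35 in MIT-Empty. In CPM these were 5.62, 8.03, 8.78, 13.2 and 15.3 against 2.82, 4.92, 2.66, 5.33 and 2.9, so the lowest MIT-BATF library was above the highest MIT-Empty library. Its log2 fold change was 1.46 (SE 0.31, 95% interval 0.79 to 2.13, adjusted p = 0.0151 from edgeR), and it stayed past the threshold with each library left out in turn (1.27 to 1.62). The call was lost with shared counts counted once (1.22, SE 0.42, adjusted p = 0.236, groups overlapping) and without the contained libraries (1.14, adjusted p = 0.226). Summed with Trdv2-1, in a test added after the data were seen, it gave 1.21 (adjusted p = 0.025) and 1.02 with shared counts counted once (adjusted p = 0.347).

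The other delta segments did not pass the test. Trdv1, read in all 10 libraries, was at 2.23 ± 0.865 CPM against 1.67 ± 0.678 CPM (log2 fold change 0.44, adjusted p = 0.641 from edgeR), and Trdv4 had a log2 fold change of 1.17 (SE 0.6, adjusted p = 0.321). Trdv2-1 and Trdv5 did not pass the filter on low counts, and Trdv5 overlaps an exon of Trdc on the opposite strand. The delta segments together took 0.386% to 0.426% of V counts in MIT-BATF and 0.16% to 0.308% in MIT-Empty, and 0.315% to 0.426% against 0.16% to 0.308% with shared counts counted once. Trdc, the delta C region, stood at 38.4 CPM in MIT-BATF, against 31.2 CPM under MIT-Empty (log2 fold change 0.30, adjusted p = 0.474 from edgeR). Of the other 5 genes on the gamma-delta T cell list, Trgc1 had 364 counts, Trgv6 25, Sox13 21, Blk 19 and Il23r 10 over all 10 libraries, and the list summed to 24.6 to 53.1 CPM in MIT-BATF against 28.7 to 42.3 CPM under MIT-Empty.

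Trgv2 was the main gamma segment, with 0, 1, 32, 1 and 23 counts in MIT-BATF and 4, 42, 50, 11 and 41 in MIT-Empty. Its log2 fold change was -2.11 (SE 0.79, adjusted p = 0.16 from edgeR), and the groups overlapped. It passed the filter through the MIT-Empty libraries, where it is high. Trgv3 had counts only in MIT-BATF replicates 1, 2 and 4 (2, 10 and 6), Trgv6 had 25 counts over 9 libraries and Trgv1 17 over 6. Together, the gamma C regions were read more than the gamma V segments, apart from Trgc3, which had 8 counts, all in MIT-BATF replicate 1. Trgc2 fell (log2 fold change -1.68, SE 0.44, adjusted p = 0.0416 from edgeR), with 61, 59, 158, 31 and 113 counts in MIT-BATF and 24, 215, 427, 51 and 307 in MIT-Empty, and lost the call with shared counts counted once (-1.70, adjusted p = 0.135). Its groups overlapped, since MIT-Empty replicate 1 was at 2.94 CPM. Trgc4 gave a log2 fold change of -0.64 (adjusted p = 0.204) and Trgc1 one of 0.21 (adjusted p = 0.92).

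Over all members, 56 of the 129 V segments passed the filter on low counts (44 Trav, 8 Trbv, 1 Trgv and 3 Trdv), and 1 of them, Trdv2-2, passed the threshold, against 4.58% of all 11781 genes tested. An unadjusted p under 0.05 was found for 12 of the 56, against 18.1% of all genes. DESeq2 called 4 of the same 56, against 7.79% of the genes it gave an adjusted p. The members' median log2 fold change was -0.01, beside 0.007 over all genes. With shared counts counted once 38 passed the filter and 0 were called by edgeR, against 1.26% of 11131 genes, and 3 had an unadjusted p under 0.05, against 10.6%. Groups did not overlap for 4 of the 56 (Trdv2-2, Trav7-4, Trav6-7-dv9 and Trav19), against 6.45% of all genes tested, and for 0 of 38 with shared counts counted once, against 3.19%. Read against these backgrounds, neither count is a result about V segments as a group. Trav19, outside the rule for named segments and singled out after its values were seen, was at a log2 fold change of 1.55 (adjusted p = 0.0722 from edgeR). It passed the filter through the MIT-BATF libraries, where it is high (0.965 to 1.47 CPM, against 0.162 to 0.735 CPM in MIT-Empty). With shared counts counted once it did not pass the filter.

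**Figure D4:**
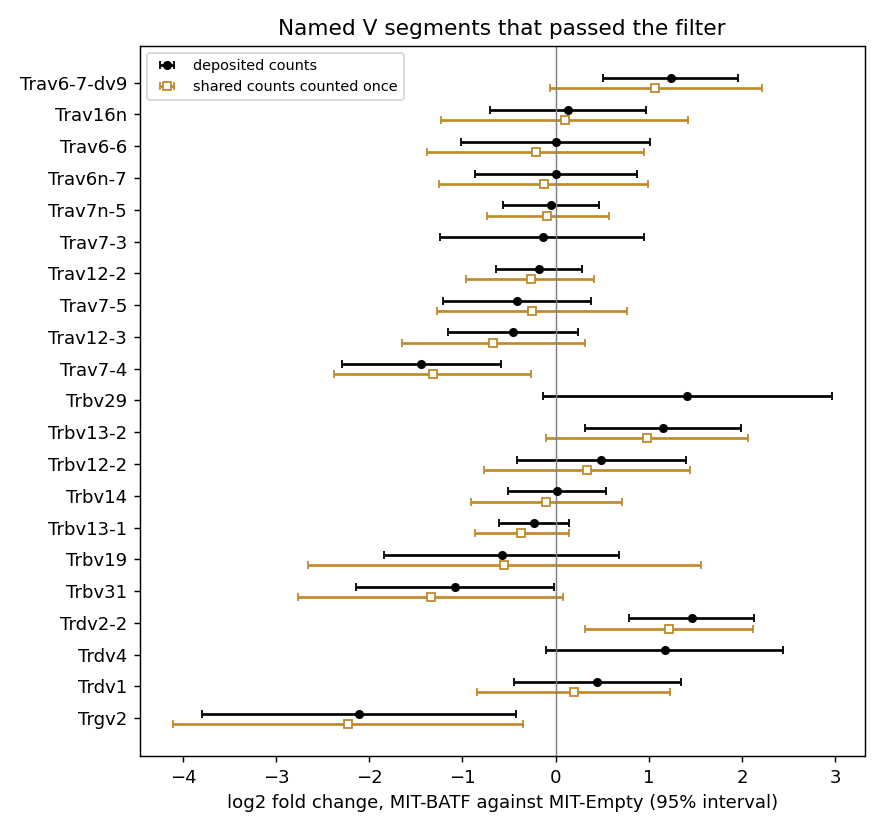
Log2 fold change, MIT-BATF against MIT-Empty, with 95% interval, for the named V segments that passed the filter on low counts. Black circles are deposited counts and open squares are shared counts counted once. Trbv14 and Trav7n-5 lie within 0.10 of 0 in both, and Trdv2-2 is at 1.46 and 1.22.

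The other genes of the receptor complex and of V segment joining gave 1 call, the fall of Trgc2, among 14 of 18 that passed the filter. That compares with 4.58% of all genes tested. With shared counts counted once 0 of 14 were called, against 1.26% of all genes, so the count is no result about this list. Trac, the alpha C region, had a log2 fold change of -0.13 (SE 0.2), Trbc1 one of -0.19 (SE 0.21) and Trbc2 one of -0.03 (SE 0.2), with adjusted p of 0.698 or above from edgeR. Trbc2 took 88.1% to 91% of the beta C counts. The CD3 chains Cd3d, Cd3e, Cd3g and Cd247, which carry the receptor signal, lay between -0.12 and 0.34 (adjusted p of 0.291 or above), and the coreceptor genes Cd8a and Cd8b1 at 0.06 and 0.30 (0.376 or above). Rag1 and Rag2, the recombinase that joins the segments, and Dntt, which adds bases at the joints, had at most 2 counts in any library. Ptcra, the partner of the beta chain in thymocytes, was read in all 10 libraries at 1.68 to 7.27 CPM (log2 fold change 0.03, adjusted p = 0.98).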

How the data were processed

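The authors prepared SMART-Seq2 libraries, sequenced them in 37 bp paired-end mode and processed them with the nf-core/rnaseq pipeline against mm10. Salmon gave the deposited estimated counts and TPM values per transcript (version not given in the sources used here). Of 112092 transcripts, 305 had no match in GENCODE M21 and were left out. Estimated counts were added up within each gene and then rounded. Groups and replicate numbers came from the labels. The names of the deposited tables carry a further number of unstated meaning.

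Genes were tested with edgeR 4.0.16 (quasi-likelihood test, TMM, filterByExpr, group as the only term, Benjamini-Hochberg over all genes, threshold 0.05), with DESeq2 1.42.0 as an alternative. The edgeR fit was checked on simulated libraries drawn independently of one another, so that check does not cover the nested counts. SE is the log2 fold change over the square root of its F statistic. Shares were compared by an exact permutation test. Chains follow the symbol, and 8 members without a Tr symbol were named from RefSeq. The members and gene lists were chosen with earlier results of these data known. Named segments are Trbv14, Trav7 copies with a mean of at least 10 counts, every called member, and the 6 Trbv, 6 Trav, 4 Trgv and 4 Trdv segments of largest mean share otherwise. Splitting of reads among near copies by Salmon leaves their separate levels uncertain.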

Additional observations from a re-analysis of the deposited data

Results flagged for a closer look

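A sample far from the other 4 of its group was found in 5 of 42 groups of values checked. Chance gives about 1 in 20 for independent libraries. That rate does not hold here, since replicates 4 and 5 lie within replicates 2 and 3, so the number of flags cannot be set against it. MIT-BATF replicate 1 had the lowest Trbv14 share of Trbv counts, 98.6% against 99.3% in the other libraries of its group. The Trav7 share of Trav counts was lowest in replicate 1 of both groups, at 31.7% in MIT-BATF (others 46.4% to 49.6%) and at 36.9% in MIT-Empty (others 46.1% to 48.8%). MIT-BATF replicate 1 was also the library with the highest mitochondrial share, and the part of that in the result was not tested. Trav12-3 was highest in MIT-Empty replicate 2, at 8.47 CPM (others 2.91 to 4.48 CPM). Trbv14 was highest in MIT-Empty replicate 5, at 4591 CPM (others 2540 to 3118 CPM). The gap to the nearest library was 0.718 of the range, just above the cut of 0.71, and depends on the TMM scaling. Replicate 5 also lies within replicate 3.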

How the results depend on the processing

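Trdv2-2 was called in every fit that left the nested counts in place, and the count of called segments moved from 1 to 4 with DESeq2 (with Trav14-2, Trav6-7-dv9 and Trav7-4), to 6 with no filter (with Trbv3 and 3 other segments of few counts, beside Trav6-7-dv9), and to 0 with shared counts counted once, without the contained libraries, and for segments summed by family number with shared counts counted once (chosen after the data were seen). Leaving out each library in turn gave 1 to 2 called segments. All genes called numbered 540, against 916 with DESeq2, 903 with no filter, 140 with shared counts counted once and 96 without the contained libraries. The Trbv14 log2 fold change ranged from -0.12 to 0.20 with a library left out, and was -0.10 with shared counts counted once, -0.21 without the contained libraries and -0.03 with the replicate block. That of the summed Trav7 copies ranged from -0.22 to 0.10 with a library left out. The Trbv14 share difference ranged from -0.00566 to 0.196 percentage points with a library left out and was -0.0438 without the contained libraries, and the Trav7 share difference ranged from -2.62 to 2.78 and was 1.22 with shared counts counted once. No adjusted p of these 4 quantities fell below 0.159, and the cause of the changes in sign was not tested. Same-numbered libraries of the 2 groups correlated at -0.046 to 0.222, and at -0.088 to 0.349 with shared counts counted once. The numbers are therefore not taken to pair the mice. With the replicate block 474 genes were called, Trdv2-2 at 1.43 the only segment among them, and Trgc2 (-1.54, adjusted p = 0.0808 from edgeR) was no longer called. Trgc2 also lost its call in 6 of the 10 fits with a library left out. The gamma segments had 2 to 66 counts per library, which leaves their fold changes imprecise.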

Other observations

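Joining segments were read beside the V segments, although they are short. Trbj1-6 led the beta joining segments in each library, with 707, 2367, 3964, 1362 and 2438 counts in MIT-BATF and 667, 1931, 2750, 504 and 1960 in MIT-Empty (log2 fold change -0.06, SE 0.23, adjusted p = 0.928 from edgeR). Traj40 led the alpha joining segments, with 14 to 161 counts per library (log2 fold change -0.06, SE 0.37, adjusted p = 0.959 from edgeR). These segments were chosen after their values were seen.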
